A study of Mus musculus with 16 samples.

Results

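The genes described here encode splicing factors and other RNA-binding proteins, taken from the RefSeq annotation of the mouse genome build mm10 as the protein-coding genes whose symbol starts with Srsf, Hnrnp, Snrp, Sf3a, Sf3b, Prpf, Ddx or Rbm and goes on with a digit or letter. There were 149 of them among 21887 protein-coding genes on assembled chromosomes. Histone H3 lysine 9 beta-hydroxybutyrylation (H3K9bhb) was mapped by chromatin immunoprecipitation and sequencing in occipital cortex, labelled as a homogenate, of C57BL/6J mice of postnatal day 35. The groups were mice fasted for 48 h and mice fed ad libitum, each with 4 H3K9bhb libraries and 4 input libraries. The study asked where the mark differed with fasting. It is read here from the authors' 2 deposited lists, 8404 regions enriched in fasted mice and 1 region enriched in ad libitum mice, each region with the authors' log likelihood ratio (log-LR). Neither list gives values for single libraries, and the depth is not stated in any source used here. No spread between mice and no test between the feeding states could be had, and intervals below are 95% Wilson intervals that cover counting error only.

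Splicing removes introns from pre-mRNA through the spliceosome, which is built on each intron from small nuclear ribonucleoproteins (snRNPs) and many accessory proteins. SR proteins and hnRNPs bind the transcript and steer the choice of splice sites, and ATP-dependent helicases of the DEAD-box family remodel RNA in splicing, ribosome assembly and translation. Neurons use alternative splicing widely, and most of these proteins are made in nearly every cell. The symbol rule also takes in genes with other roles, such as Ddx58, which encodes the viral RNA sensor RIG-I, and the germ-cell genes Ddx4 and Rbmy. Beta-hydroxybutyrylation of histones draws on the ketone body beta-hydroxybutyrate, which rises in blood during fasting.

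A fasting-enriched region overlapped the 1 kb either side of a gene end for 30 of the 149 genes (20.1%, 95% interval 14.5 to 27.3), against 11.9% of all protein-coding genes. Every one of the 8 symbol families had at least 1 such gene. They included core parts of the splicing machinery, namely Prpf8, Sf3b1, Sf3a2 and Snrpa1, the SR protein genes Srsf4, Srsf6 and Srsf10, 6 hnRNP genes, 6 DEAD-box helicase genes and 9 Rbm genes. No gene of the group had the ad libitum region at an end (0 of 149), and neither did any of the 21887 protein-coding genes. The 30 genes held 33 regions with log-LR values of 3.47 to 16.0 and a median of 4.86, against a median of 4.94 over the 2474 regions at all protein-coding gene ends. A log-LR of at least 5 was reached at 13 of the 149 genes (8.72%), against 5.90% of all protein-coding genes. Among genes with a region the order was the other way, 43.3% in the group against 49.5% of all protein-coding genes. A log-LR of at least 10 was reached at 1 gene (0.671%), against 0.183%. That gene was Rbm12, whose region is shared with Cpne1. Per gene, the highest log-LR had a median of 4.91 in the group and 4.99 among all 2609 protein-coding genes with a region. None of the group's 33 regions lay in the dense arrays of regions found elsewhere in the list, against 68 of the 2474 at all protein-coding gene ends. In a homogenate, a change of the mark in some cells and a smaller change in all cells cannot be told apart, and the lists give no level from which the labelled tissue could be checked: of 24 listed markers of cortical cell types, 4 had a region at an end (Syt1, Dlx2, Mbp and Cnp), against 11.9% of all protein-coding genes.

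**Figure D1:**
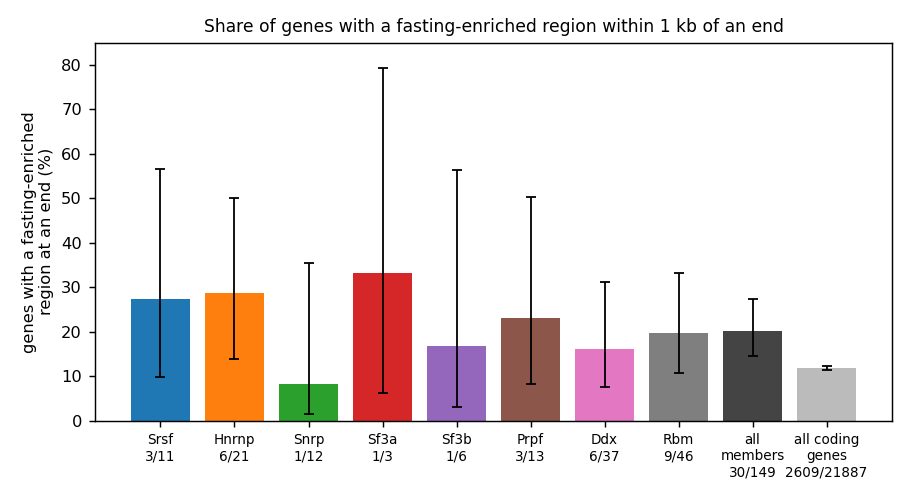
Percent of genes with a fasting-enriched region within 1 kb of an end, for each symbol family, for all 149 genes of the 8 families and for all protein-coding genes, with the counts under each bar. Error bars are 95% Wilson intervals. The group as a whole stands at 20.1% and all protein-coding genes at 11.9%, while the intervals of single families are wide, from 1.49% to 35.4% for Snrp and from 6.15% to 79.2% for Sf3a.

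The promoters of 4 of these genes are printed to show where a region meets a transcription start. They are the genes whose region touched the window from 250 bases before to 50 after a RefSeq start and lay at no other coding gene's end, and Srsf1, an SR protein gene with no region in it or within 3 kb, is given for contrast. Such an overlap was the less common case, at 7 of the 25 genes with a region and a promoter sequence and for 8 of their 28 regions. The highest log-LR was 4.35 at Srsf4, 3.94 at Ddx52, 3.74 at Hnrnpa0 and 3.50 at Rbm39, against a median of 4.91 per gene in the group. Sequences are from RefSeq (GRCm38.p6, the build called mm10), 5′ to 3′ on the gene's strand, with the bases inside a fasting-enriched region in capitals. The windows are Srsf4 at chr4:131873810-131874109 on the plus strand, Ddx52 at chr11:83941840-83942139 on the plus strand, Hnrnpa0 at chr13:58128507-58128806 on the minus strand, Rbm39 at chr2:156179531-156179830 on the minus strand and Srsf1 at chr11:88047123-88047422 on the plus strand. For Srsf4 the window belongs to 1 of 3 listed starts, and for Rbm39 to 1 of 2, both of them starts inside the annotated gene.
Srsf4: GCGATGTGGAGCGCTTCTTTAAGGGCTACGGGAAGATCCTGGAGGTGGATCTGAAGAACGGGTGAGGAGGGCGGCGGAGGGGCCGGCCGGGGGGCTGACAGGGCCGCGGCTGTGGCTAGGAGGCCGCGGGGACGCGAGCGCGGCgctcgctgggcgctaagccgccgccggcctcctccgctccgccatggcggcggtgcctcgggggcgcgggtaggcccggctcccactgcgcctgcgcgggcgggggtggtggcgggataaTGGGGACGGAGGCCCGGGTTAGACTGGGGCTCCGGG
Ddx52: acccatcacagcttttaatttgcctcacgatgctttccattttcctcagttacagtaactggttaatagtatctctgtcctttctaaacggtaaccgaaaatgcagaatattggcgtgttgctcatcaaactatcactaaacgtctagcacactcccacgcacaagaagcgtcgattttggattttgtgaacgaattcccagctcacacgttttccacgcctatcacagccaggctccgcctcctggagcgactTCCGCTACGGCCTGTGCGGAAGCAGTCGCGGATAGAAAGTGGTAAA
Hnrnpa0: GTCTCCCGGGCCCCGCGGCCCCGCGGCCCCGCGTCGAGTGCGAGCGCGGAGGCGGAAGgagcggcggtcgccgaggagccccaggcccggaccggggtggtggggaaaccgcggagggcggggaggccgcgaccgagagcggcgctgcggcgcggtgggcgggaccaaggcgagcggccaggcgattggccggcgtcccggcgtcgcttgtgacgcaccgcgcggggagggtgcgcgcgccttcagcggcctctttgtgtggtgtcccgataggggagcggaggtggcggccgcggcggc
Rbm39: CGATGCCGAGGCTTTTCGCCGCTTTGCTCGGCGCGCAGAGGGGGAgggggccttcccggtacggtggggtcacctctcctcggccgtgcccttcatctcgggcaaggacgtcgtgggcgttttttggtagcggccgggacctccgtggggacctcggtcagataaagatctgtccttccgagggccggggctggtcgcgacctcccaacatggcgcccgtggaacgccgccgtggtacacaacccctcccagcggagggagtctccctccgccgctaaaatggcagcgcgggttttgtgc
Srsf1: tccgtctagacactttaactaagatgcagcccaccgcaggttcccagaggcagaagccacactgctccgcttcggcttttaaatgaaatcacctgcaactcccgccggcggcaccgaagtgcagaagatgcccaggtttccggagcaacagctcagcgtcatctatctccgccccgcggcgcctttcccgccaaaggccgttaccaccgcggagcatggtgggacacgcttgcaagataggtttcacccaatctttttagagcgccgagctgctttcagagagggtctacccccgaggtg

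The capitals covered 180 of the 300 bases at Srsf4, where separate regions lay on either side of the start, 46 at Ddx52, 58 at Hnrnpa0 and 45 at Rbm39. At Ddx52 the region began just at the start and ran into the gene, and at Hnrnpa0 and Rbm39 the capitals lay at the far upstream side of the window. The windows differ in base composition. That of Hnrnpa0 held 52 CG dinucleotides, that of Srsf4 38, that of Rbm39 33 and that of Ddx52 18, against 22 in that of Srsf1.

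Among the SR protein genes, whose products bind exonic enhancers through RNA recognition motifs and carry arginine-serine repeats, 3 of 11 had a region at an end (27.3%, interval 9.75 to 56.6), against 11.9% of all protein-coding genes, a share inside that interval. Srsf6 had a log-LR of 7.23, the highest value of any region in the group that lay at a single coding gene's end, at chromosome 2, 162931564 to 162931848, centred 198 bp into the gene. Srsf10, whose product represses splicing when dephosphorylated, had 6.15 at chromosome 4, 135856533 to 135856748, centred 889 bp past the 5′ end of the gene and 570 bp past the nearest start that RefSeq lists. Srsf4 had 2 regions at its 5′ end, of log-LR 4.26 at chromosome 4, 131873686 to 131873953, and of 4.35 at 131874074 to 131874228. It held a further pair inside the gene with values of 5.36 and 7.49, which lay 5496 and 5246 bp from its 3′ end. The 8 genes without a region at an end were Srsf1, Srsf11, Srsf12, Srsf2, Srsf3, Srsf5, Srsf7 and Srsf9. Of these, Srsf2 had a region of log-LR 3.99 inside the gene, 1476 bp from the nearer end.

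Of the hnRNP genes, whose products coat nascent transcripts and often act against SR proteins, 6 of 21 had a region at an end (28.6%, interval 13.8 to 50), against 11.9% of all protein-coding genes. Hnrnpc, which encodes a binder of uridine tracts, had the family's highest log-LR at a gene end, 6.07, at chromosome 14, 52103665 to 52103879, centred 267 bp into the gene. Hnrnpa2b1, whose product acts in splicing and RNA transport, followed with 5.54 at chromosome 6, 51469254 to 51469471. That region was centred 686 bp into the gene and 792 bp from the start of its neighbour Cbx3, which encodes the heterochromatin protein HP1 gamma. Hnrnpll, a regulator of Cd45 splicing in lymphocytes, had 5.26. Hnrnpab had 4.89, in a region of 431 bp, and Hnrnpl, whose product binds CA repeats, had 3.86. Hnrnpa0 had a region on each side of its 5′ end, of log-LR 3.74 at chromosome 13, 58128749 to 58128881, centred 259 bp outside the gene, and of 3.57 at 58128056 to 58128275, centred 391 bp inside it. The regions of Hnrnpc, Hnrnpa2b1 and Hnrnpll were shared with another coding gene. The 15 genes without a region at an end included Hnrnpa1, Hnrnpa1l2-ps2, Hnrnpa3, Hnrnpd, Hnrnpdl and Hnrnpf. In 4 of the 15 a region lay inside the gene beyond 1 kb of its ends, with log-LR values of 5.28 at Hnrnpu, 4.16 at Hnrnpul1, 3.70 at Hnrnpul2 and 3.64 at Hnrnph1. Hnrnpu had another region, of 6.29, centred 2467 bp outside the gene. In the gene or within 1 kb, 10 of the 21 hnRNP genes had a region, against 18.1% of all protein-coding genes.

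The snRNP and spliceosome core families were the Snrp genes, which encode Sm proteins and proteins of single snRNPs, the Sf3a and Sf3b genes of the U2 snRNP, which grips the branch point, and the Prpf genes of the tri-snRNP and of later spliceosome assembly. They had a region at an end in 1 of 12 Snrp (8.33%), 1 of 3 Sf3a (33.3%), 1 of 6 Sf3b (16.7%) and 3 of 13 Prpf genes (23.1%), against 11.9% of all protein-coding genes, a share inside the interval of each of these families. Sf3b1, whose product clamps the branch point helix, had a log-LR of 7.10 at chromosome 1, 55027002 to 55027215, centred 393 bp into the gene, at no other coding gene's end. Sf3a2 had 4.39 at chromosome 10, 80798719 to 80798867, in the group's only region that crossed the annotated end of its gene. Snrpa1, which encodes a protein of the U2 snRNP, had 2 regions inside its 5′ end, of 4.84 and 4.53, at chromosome 7, 66060514 to 66060742 and 66060810 to 66060990. Prpf8, the scaffold at the spliceosome's catalytic centre, had 5.51 at chromosome 11, 75486856 to 75487051, centred 177 bp into the gene. Prpf40b, a partner of the U1 snRNP, had 5.60 at chromosome 15, 99295301 to 99295423, a region that also lay inside the gene Fam186b. Prpf4b, a kinase of tri-snRNP proteins, had 4.94 and shared its window with the non-coding gene Gm36839.

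None of the 8 genes for Sm proteins had a region at an end. The interval of that share reached up to 32.4% and held the 11.9% of all protein-coding genes. The Sm genes were Snrpb, Snrpd1, Snrpd2, Snrpd3, Snrpe, Snrpf, Snrpg and Snrpn, and Snrpa, Snrpb2 and Snrpc of the U1 and U2 snRNPs had none either. Within 3 kb, Snrpd2 had a region of log-LR 5.89 centred 2352 bp from its nearer end. Snrpn, annotated here as a gene of 467683 bp, held 2 regions far inside it, of 5.19 and 6.44. The Sf3a and Sf3b genes without a region at an end were Sf3a1, Sf3a3, Sf3b2, Sf3b3, Sf3b4, Sf3b5 and Sf3b6, and Sf3b2 had one of 4.63 inside the gene, 2292 bp from its nearer end. Of the 10 Prpf genes without a region at an end, among them Prpf18, Prpf19, Prpf3, Prpf31, Prpf38a and Prpf38b, none had one inside the gene. The Prpf genes with a region in the gene or within 1 kb were thus 3 of 13, against 18.1% of all protein-coding genes.

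In the DEAD-box helicase family 6 of 37 genes had a region at an end (16.2%, interval 7.65 to 31.1), against 11.9% of all protein-coding genes, a share inside that interval. Ddx31, whose human counterpart encodes a nucleolar helicase, had a log-LR of 7.09 at chromosome 2, 28839855 to 28840347, a region of 493 bp that lay wholly outside Ddx31 and inside its neighbour Gtf3c4. Ddx6, whose product represses and helps degrade mRNA in P-bodies, had 5.99 at chromosome 9, 44603967 to 44604522. That region was the widest of the group at 556 bp, reached to 984 bp from the gene's end and was centred 1262 bp from it. Another region of Ddx6, of 5.01, lay 2054 bp from the same end. Ddx17 and Ddx5, paralogous helicases that act in splicing and transcription, had almost equal values of 4.54 and 4.53 in different positions. The region of Ddx17 was centred 408 bp inside its 5′ end. That of Ddx5 was centred 975 bp beyond its 3′ end and 157 bp inside the 5′ end of Polg2, a subunit gene of the mitochondrial DNA polymerase, and Ddx5 held another region of 5.71 inside the gene, 1272 bp from its nearer end. Ddx52, whose yeast counterpart acts in ribosome assembly, had 3.94, and Ddx24 had 3.51. The 31 helicase genes without a region at an end included Ddx1, Ddx10, Ddx11, Ddx18, Ddx19a and Ddx19b. Ddx3x on chromosome X had a region of 5.20 inside the gene, 1120 bp from its nearer end, and Ddx21 had one of 5.32 centred 2118 bp outside it.

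Of the Rbm genes, named for an RNA-binding motif and not for a shared function, 9 of 46 had a region at an end (19.6%, interval 10.7 to 33.2), against 11.9% of all protein-coding genes, a share inside that interval. Rbm12 held the group's highest log-LR, 16.0, at rank 249 of the 8404 fasting-enriched regions, at chromosome 2, 156112389 to 156112516. This region of 128 bp lay in no annotated gene, 488 bp upstream of a 5′ end that Rbm12 and Cpne1 share at the same base. Rbm17, whose product takes part in choosing 3′ splice sites, had 6.65 at chromosome 2, 11602777 to 11603056, centred 283 bp into the gene. Rbm3, a cold-inducible gene, had 5.57 in a region that also lay in the non-coding gene Rbm3os. Of the group's X-linked genes it was 1 of 7 with a region at an end (14.3%, interval 2.57 to 51.3), against 7 of 966 X-linked protein-coding genes (0.725%). Rbmxl1, an autosomal relative of the X-linked Rbmx, had 4.98, Rbm6 had 4.86 and Rbm12b2 had 4.55. The lowest values were at Rbm33 (3.57), Rbm39 (3.50), which encodes a splicing coactivator, and Rbm22 (3.47), whose product sits at the catalytic centre of the spliceosome. The region of Rbm33 was also at an end of the non-coding gene Gm35602, and that of Rbm22 at an end of the non-coding gene Gm52358. The 37 genes without a region at an end included Rbm10, Rbm11, Rbm12b1, Rbm14, Rbm15 and Rbm15b. Of these, Rbm15 had a region of 4.61 inside the gene. Rbm12b1, which has a close relative in Rbm12b2, had 3 regions centred 1611 to 2050 bp from an end, with values of 4.62 to 6.88. Genes with near-identical copies, such as these and Rbmxl1, could share reads, and no source used here says how such reads were placed.

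**Figure D2:**
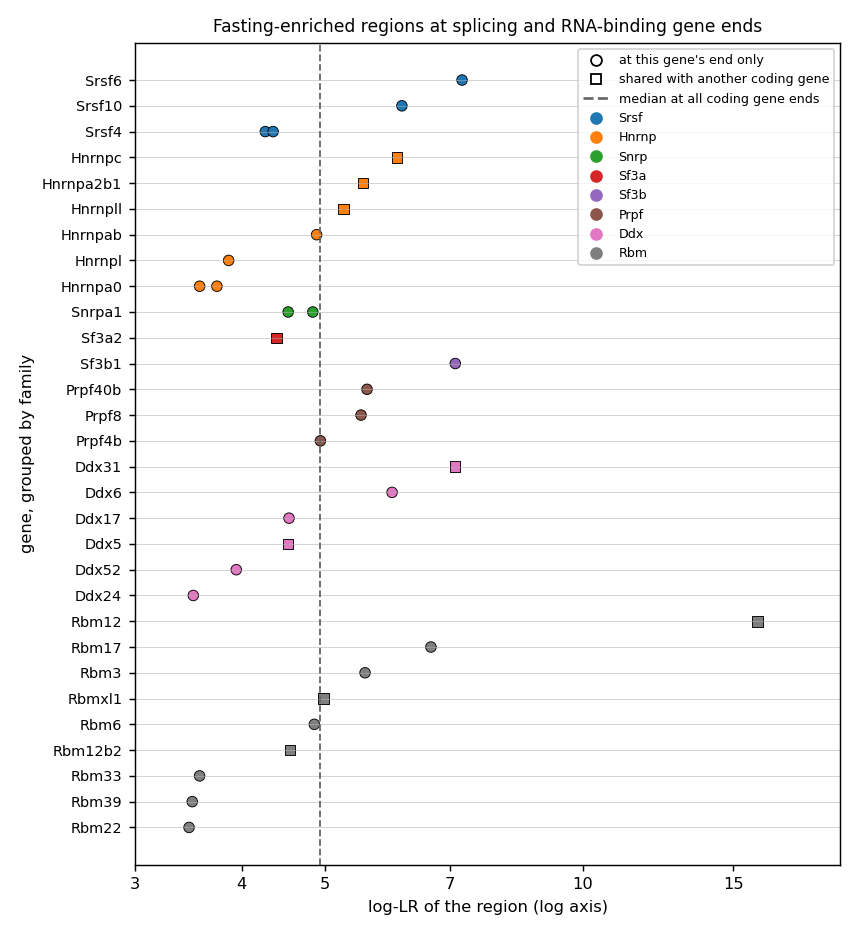
The authors' log-LR (horizontal, log axis) of each of the 33 fasting-enriched regions at the ends of the 30 genes, which are ordered by family and then by their highest value. Squares are regions shared with another protein-coding gene's end, circles are not shared, and the dashed line is the median of 4.94 over regions at all protein-coding gene ends. The shared region of Rbm12 at 16.0 stands apart, and the other values lie between 3.47 and 7.23.

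For 9 of the 30 genes (30.0%) the region was shared with the end of another protein-coding gene, as it was for 25.7% of all protein-coding genes with a region. Such a region cannot be assigned to a single gene. In 5 of the 9 pairs the genes ran away from each other, with 46 to 395 bp between their 5′ ends: Ddx31 with Gtf3c4, Hnrnpa2b1 with Cbx3, Hnrnpc with Rpgrip1, Rbmxl1 with Slc10a7 and Sf3a2 with Plekhj1. In 2 pairs, Rbm12 with Cpne1 and Ddx5 with Polg2, the genes ran the same way. For Hnrnpll with 4933407O12Rik and Rbm12b2 with Tmem67 the strand of at least 1 gene is not in the table used. The 9 shared regions had a median log-LR of 5.26 and a range of 4.39 to 16.0, and the 24 unshared regions a median of 4.69 and a range of 3.47 to 7.23. Counting only unshared regions, 21 of the 149 genes had one (14.1%), against 8.85% of all protein-coding genes.

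Most of the regions lay just inside the 5′ end of the gene. The strand could be read for 25 of the 30 genes, which held 28 regions. Of these, 27 were at the 5′ end and 1, that of Ddx5, at the 3′ end, against 94.2% at the 5′ end for all protein-coding genes. Counting regions within 1 kb of the 5′ end alone, 24 of 129 genes with a known strand had one (18.6%), against 11.5%. The centres of 24 of the 27 regions lay downstream of the 5′ end (88.9%), against 82.6% for all protein-coding genes. The 3 exceptions were the regions of Rbm12 and Ddx31 and 1 of the pair at Hnrnpa0. The median centre was 292 bp into the gene, with quartiles of 202 and 531 bp, against a median of 313 bp and quartiles of 154 and 521 bp for all protein-coding genes. The class from 250 to 500 bp held the most, 11 of 27 (40.7%), as it did for all protein-coding genes (34.4%).

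**Figure D3:**
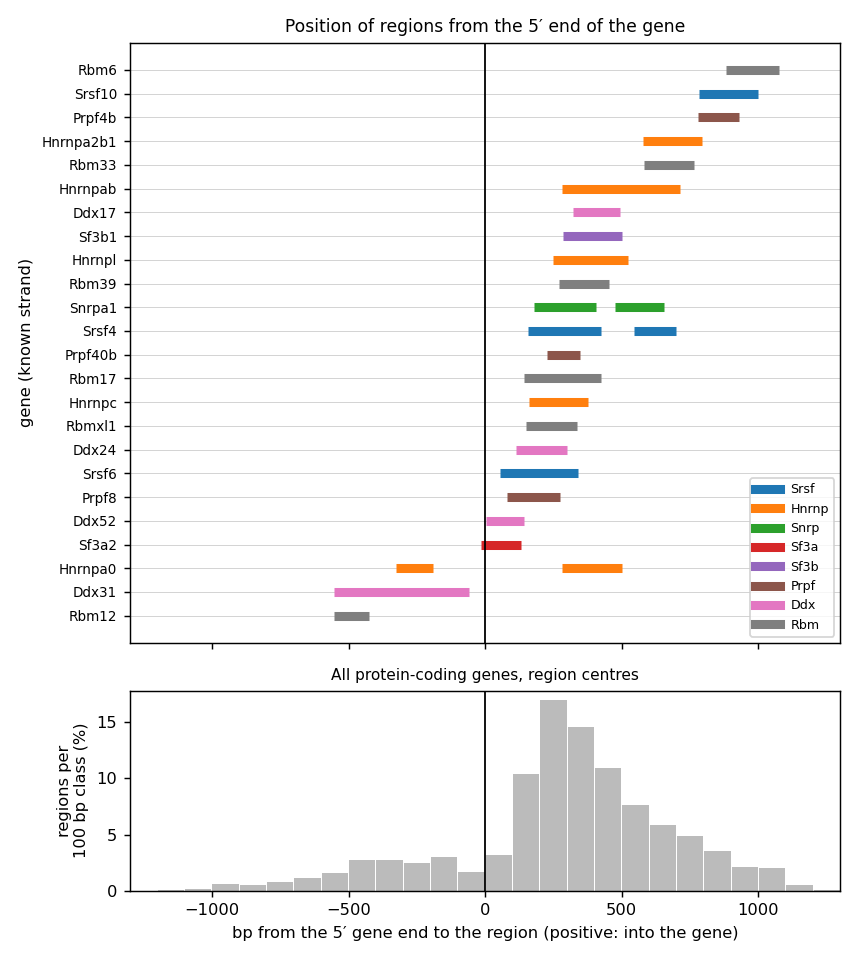
Upper panel, the extent of each of 27 regions at the 5′ end of 24 genes of known strand, in bp from the annotated 5′ end with positive values into the gene. Lower panel, the share of region centres in each 100 bp class for all protein-coding genes. In the upper panel 24 of the 27 centres lie inside the gene, up to 979 bp from its end, and only Rbm12, Ddx31 and Hnrnpa0 have a centre upstream.

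Promoter base composition moved with the presence of a region. A promoter sequence was in the table for 129 of the 149 genes and for 17492 protein-coding genes. Each gene gave 1 window, also where it had several listed starts. For Srsf4 (49 CG dinucleotides) and Rbm39 (25) this was another window than the one printed above. In the window of 300 bases, CG dinucleotides numbered 27 at the median in the 25 genes of the group with a region, against 25 in the 2113 of all protein-coding genes with one. They numbered 23 in the group's 104 genes without a region, and 13 in all protein-coding genes. At least 15 were present in 84.5% of the group's promoters, against 47.4% of all. Within classes of CG count, which were chosen after the data were seen, the share of genes with a region was 25.4% in the group (15 of 59) and 25.2% in all protein-coding genes at 25 or more CG. At 15 to 24 CG it was 9 of 50 genes in the group and 15.7%, and at 5 to 14 CG it was 6.67% (1 of 15) and 7.83%. Below 5 CG it was 0 of 5, with an upper bound of 43.4%, and 1.65%. In each class the interval of the group held the share of all protein-coding genes. The part of CG content in the group's larger share was not tested. These counts describe the promoter window and not the region, since a region overlapped a listed window at only 7 of the group's 25 genes.

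**Figure D4:**
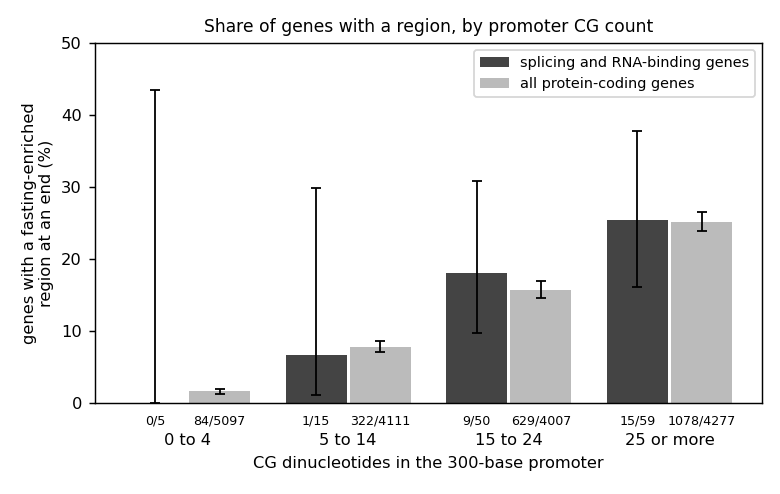
Percent of genes with a fasting-enriched region within 1 kb of an end, by the number of CG dinucleotides in the promoter, for the splicing and RNA-binding genes and for all protein-coding genes. Error bars are 95% Wilson intervals and the counts stand under the bars. The share climbs with CG count in both sets, to 25.4% in the group and 25.2% in all protein-coding genes at 25 or more.

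A set of 11 short motifs was searched on both strands of the same windows, and a match is only a match of letters. Shares are given for the 25 promoters of the group with a region, against the 2113 of all protein-coding genes with one, and then for the group's 104 without one, against all 17492 protein-coding promoters. GGGCGG, the GC box, was in 68.0% of the 25, against 70.4% of the 2113, and in 56.7% of the 104, against 46.3% of all. CCAAT was in 60.0%, against 35.4%, and in 49.0%, against 39.2%. The share with CCAAT was thus higher with a region than without one in the group, whereas it was lower in all protein-coding genes with a region than in all protein-coding genes. TTCCGG, which is contained in the reverse complement of CCGGAAG, was in 28.0%, against 26.2%, and in 40.4%, against 19.1%. The ETS core CCGGAAG itself was in 16.0%, against 17.1%, and in 28.8%, against 11.9%. CTCGCGAG was in 3 of 25, against 2.60%, and in 3 of 104, against 1.31%. TATAAA was in 1 of 25, against 5.96%, and in 16 of 104, against 13.3%. The E-box CACGTG was in 1 of 25, against 10.1%, and in 13 of 104, against 7.91%. The remaining motifs, GCGCATGCG, ACTACAATT, AGATGGCGG and TGACGTCA, were in none of the 25, against 87, 16, 50 and 70 of the 2113 in that order, and in 2, 1, 4 and 6 of the 104, against 422, 95, 263 and 407 of the 17492. With 25 promoters, such shares are imprecise, and no difference between the sets was tested.

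Beyond the 1 kb window, 14 further genes of the group held a region inside the gene and had none at an end. With them, 44 of 149 had one in the gene or within 1 kb (29.5%), against 18.1% of all protein-coding genes. In 9 of the 14 the region inside the gene was within 3 kb of an end, and in the other 5 (Rbm20, Rbms1, Rbms3, Rbmx2 and Snrpn) it was over 5 kb away. Hnrnpu and Rbm12b1, among the 9, also had a region outside the gene within 3 kb. Within 3 kb of an end 41 genes had a region (27.5%), against 14.7%, and within 500 bp 23 had one (15.4%), against 9.55%. When the region's centre had to lie within 1 kb, 29 genes had one (19.5%), against 11.6%, with Ddx6 lost. Among autosomal genes the counts were 29 of 139 (20.9%), against 12.6%. In the gene or within 3 kb of it 46 genes of the group had a region (30.9%), against 19.3%, which leaves 103 genes with none. Genes with a region at an end had a median length of 17820 bp in the group and those without one 14740 bp, compared with 27340 and 16130 bp among all protein-coding genes.

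Genes of RNA processing outside the symbol families were counted from 6 lists. Together 38 of 176 had a region at an end (21.6%, interval 16.2 to 28.2), against 11.9% of all protein-coding genes. Among core spliceosome proteins it was 11 of 54, led by Gpatch1 (log-LR 9.72) and Crnkl1 (7.39, shared with Cfap61). In 8 of the 11 the region was shared with another coding gene, against 25.7% of all protein-coding genes with a region. For Txnl4b that other gene was Dhx38 of the DEAH-box list, so their region of 4.18 counted in both lists. Among neuronal and tissue splicing regulators it was 13 of 46, led by Syncrip (7.70) and Elavl1 (6.43, shared with Ccl25), the gene of the RNA-stabilising protein HuR. This list is not confined to neuronal genes, and its share does not speak for them alone. Celf4 and Elavl3 had a region, whereas Nova1, Nova2, Rbfox1, Rbfox3, Elavl2, Elavl4, Ptbp2, Srrm3, Srrm4, Celf3, Celf5 and Celf6 did not. SR protein kinases and SR-related genes had 6 of 19, led by the kinase gene Clk3 (5.42) and by Pnn (4.84). DEAH-box helicases had 3 of 16, led by Dhx15 (4.44), whose product releases the spent spliceosome, and Dhx30 (4.21). Sm-like and SMN complex genes had 3 of 21, led by Gemin5 (5.97) and Lsm14b (3.91), and exon junction and export genes had 2 of 20, Eif4a3 (6.11), a helicase of the exon junction complex, and Thoc7 (4.75, shared with Atxn7). The intervals of the neuronal and tissue regulators (17.3 to 42.5) and of the SR kinases and related genes (15.4 to 54) lay above 11.9%, and those of the other 4 lists held it. With these sizes the intervals were wide, for example 2.79% to 30.1% for exon junction and export genes, and no list was tested against another.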

How the data were processed

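Per the labels, H3K9bhb chromatin and input DNA were sequenced from 4 libraries each per feeding state. The submitters' processing notes name the build mm10, Bowtie2 and MACS2, with neither versions nor steps. Per the file headers, the authors deposited regions with a log-LR, used here as a score to describe and rank regions. The depth is unknown, and the log base, cutoff, scaling to depth and pooling of libraries are not stated in any source used here. Unequal depth or yield of the immunoprecipitations would change how many regions are listed. Starts were read as counted from 0, since the smallest width is then 120 bp, and coordinates are printed from 1. Genes came from RefSeq (GRCm38.p6), and strand from RefSeq promoter windows, which covered 129 of the 149 genes. A region counted for a gene where it overlapped the 1 kb either side of an end, a step checked on simulated data. Counts at gene ends were read against the share of all protein-coding genes, with no set test. The genes, lists and settings were chosen with earlier results of these data known. Every gene of the group with a region is named, others by symbol order, and of each other list the 2 of highest log-LR. The tools were pandas 2.3.3, numpy 2.4.6, matplotlib 3.10.9 and scipy 1.17.1 in Python 3.11.15.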

Additional observations from a re-analysis of the deposited data

How the results depend on the processing

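Across 16 alternative settings, 13 gave a value close to the reported one (counts within 1.5 times, medians within 1 SD over genes) and 3 did not. These limits were loose. The SD took in Rbm12 at 16.0 while the other genes lay between 3.47 and 7.23, so a median could hardly have failed. Counts of 41 (within 3 kb of an end) and 44 (in the gene or within 1 kb) passed as close to 30. The count of 30 genes with a region became 13 when regions needed a log-LR of 5 and 1 when they needed 10, limits that leave fewer regions by construction. It was 25 of 126 (19.8%) with symbols of a prefix, digits and at most 2 letters, against 11.9% of all protein-coding genes. The 9 genes with shared regions only became 16 of 41 with a window of 3 kb, which by construction reaches more neighbours. The median log-LR per gene ran from 4.86 to 4.94. No paired analysis was possible because neither deposited list separates the libraries, and leaving out single replicates was not run for the same reason. Neither list gives a region that carries the mark alike in both feeding states, so a gene without a region may be marked equally or not at all.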
